A study of Mus musculus with 6 samples.

Results

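The DNA methylation and Polycomb enzymes, which write, maintain or remove chromatin marks of silent genes, were compared between mouse neural stem cells positive and negative for a Spot14 green fluorescent protein (GFP) signal. They were chosen by name, as Dnmt1, Dnmt3a, Dnmt3b, Uhrf1, Hells, Ezh1, Ezh2, Eed, Suz12 and Tet1, and are 10 of 18193 genes named by exactly 1 symbol on the arrays. All 10 passed the filter on low signal, at least log2 4 on 3 or more of the 6 arrays, which 10531 genes passed. The series holds 3 Spot14 GFP positive and 3 Spot14 GFP negative samples, called biological replicates in the design text, each with total RNA on its own array. Spot14 is the product of Thrsp, a thyroid hormone responsive gene of lipid synthesis. The study's title speaks of adult neural stem cells, while strain, exact age, the reporter construct, culture and the way positive and negative cells were separated are not stated in the labels or files used. The labels do not say that the replicates came from separate animals or cultures, so p-values rest on the spread between these samples. The limma test used here shares part of that spread over all genes tested, so a p-value does not reflect a gene's own scatter alone.

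DNA methylation of cytosines beside guanines is copied onto new DNA by Dnmt1, which Uhrf1 brings to hemimethylated sites behind the replication fork, and Hells is a chromatin remodeller that opens nucleosomal DNA to this machinery. Dnmt3a and Dnmt3b set new methylation, and Tet1 oxidises methylcytosine as a step of its removal. Polycomb repressive complex 2 (PRC2) methylates histone H3 through Ezh2 or its paralogue Ezh1, with Eed and Suz12 as shared core subunits. In neural stem cells PRC2 and the maintenance of methylation are known for keeping lineage genes silent. Ezh2 is known to be abundant in dividing cells and Ezh1 in resting or differentiated ones.

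The 5 genes printed here are the members that passed the test below as lower in GFP positive cells (Uhrf1, Hells and Ezh2), Dnmt1, which did not pass, and Ezh1. Ezh1 had the largest difference in the other direction. Eed, Suz12 and Tet1 also had differences below 0 and are not printed. Of these Suz12 held a word of the kind marked here, and Eed and Tet1 held none. The printed windows therefore do not stand for all 10 members. Their promoter windows are shown, though for Uhrf1 and Dnmt1 not all of them. They are RefSeq sequences of build GRCm38.p6, 250 bases before to 50 bases after a transcription start, written 5′ to 3′ on the strand of the gene. Capitals mark any of the words TTTCCCGC, TTTCGCGC, TTTGCCGC and TTTGGCGC on either strand, the core of sites bound by E2F transcription factors, which are known to drive genes of S phase.
Uhrf1, chr17:56304063-56304362, plus strand: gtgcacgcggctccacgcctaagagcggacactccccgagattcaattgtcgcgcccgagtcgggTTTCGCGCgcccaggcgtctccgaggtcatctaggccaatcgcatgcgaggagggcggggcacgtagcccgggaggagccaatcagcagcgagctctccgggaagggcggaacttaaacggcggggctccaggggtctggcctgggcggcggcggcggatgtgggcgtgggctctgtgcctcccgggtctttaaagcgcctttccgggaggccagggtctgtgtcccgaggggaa
Hells, chr19:38930740-38931039, plus strand: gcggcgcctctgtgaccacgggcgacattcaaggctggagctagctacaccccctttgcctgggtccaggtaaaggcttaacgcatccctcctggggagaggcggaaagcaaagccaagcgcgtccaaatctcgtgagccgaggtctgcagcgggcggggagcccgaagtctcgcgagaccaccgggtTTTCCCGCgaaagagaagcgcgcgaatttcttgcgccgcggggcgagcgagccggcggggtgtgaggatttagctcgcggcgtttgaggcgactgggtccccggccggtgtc
Ezh2, chr6:47594981-47595280, minus strand: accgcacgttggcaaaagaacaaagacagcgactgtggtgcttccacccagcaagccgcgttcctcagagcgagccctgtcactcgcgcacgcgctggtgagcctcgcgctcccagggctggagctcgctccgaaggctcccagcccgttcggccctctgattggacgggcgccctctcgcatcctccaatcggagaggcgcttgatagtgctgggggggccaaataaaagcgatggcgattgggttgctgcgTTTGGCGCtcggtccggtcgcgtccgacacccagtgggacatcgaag
Dnmt1, chr9:20952574-20952873, minus strand: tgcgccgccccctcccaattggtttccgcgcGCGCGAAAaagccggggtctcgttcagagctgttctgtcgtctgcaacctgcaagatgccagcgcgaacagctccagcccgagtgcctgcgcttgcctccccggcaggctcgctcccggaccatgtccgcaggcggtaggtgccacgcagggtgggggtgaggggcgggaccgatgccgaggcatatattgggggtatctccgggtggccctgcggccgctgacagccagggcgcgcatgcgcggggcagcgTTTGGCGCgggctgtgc
Ezh1, chr11:101226414-101226713, minus strand: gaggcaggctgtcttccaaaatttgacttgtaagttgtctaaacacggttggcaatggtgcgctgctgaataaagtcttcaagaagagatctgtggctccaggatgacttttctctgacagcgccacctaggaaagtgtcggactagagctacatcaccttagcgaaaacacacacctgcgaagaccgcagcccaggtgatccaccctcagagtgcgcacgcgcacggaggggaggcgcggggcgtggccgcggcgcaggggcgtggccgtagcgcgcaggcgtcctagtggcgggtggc

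Of the 10 genes, 5 held an E2F word in at least 1 window: Dnmt1, Uhrf1, Hells, Ezh2 and Suz12. The word of Ezh2 began at base 4 of the transcript, counting its first base as 1, that of Hells 62 bases before the start and that of Uhrf1 185 bases before its second annotated start. Dnmt1 had one 219 bases before and one at base 34 of the transcript in its most downstream window, and Suz12 one 219 bases before its start. Dnmt1 and Dnmt3a have 3 annotated windows each and Uhrf1 has 2, so these genes had more sequence to match. For Uhrf1 and Dnmt1 only the window with an E2F word is printed above, and their other windows held none. A word stood in 2.26% of all 32851 windows of this length in the table, in 4.1% of the 11133 windows of genes tested on the arrays and in 12.3% of the 211 windows of genes lower and 1.56% of the 257 windows of genes higher in GFP positive cells. By window rather than by gene, 5 of the members' 15 windows (33.3%) held one. The CCAAT box, read on both strands, stood in windows of Dnmt1, Uhrf1, Ezh2, Eed and Suz12 and in 37.4% of all windows, 38% of those of tested genes, 56.4% of those of lower and 39.3% of those of higher genes. The word TTTGAA of the cell cycle homology region stood in windows of Dnmt1, Dnmt3b, Eed and Suz12 and in 17.9% of all windows, 11.5% of those of tested genes, 30.8% of those of lower and 10.9% of those of higher genes. None of these 3 motifs was found in the windows of Ezh1, Dnmt3a and Tet1. The words were chosen with the expression results known, and are letter matches with no test. No E2F word shared bases with a match of the other motifs, while a pair of CCAAT matches on opposite strands shared bases in a window each of Dnmt1 and Uhrf1.

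The methylation maintenance genes Uhrf1 and Hells and the PRC2 enzyme Ezh2 were lower in GFP positive cells, while Dnmt1, the genes of new methylation, Tet1 and the other PRC2 genes did not pass the test. Of the 10 members, 3 fell (Uhrf1, Hells and Ezh2) and 0 rose at a limma adjusted p under 0.05, where 2.11% of tested genes fell and 2.35% rose (4.46% in either direction). At an unadjusted limma p under 0.05, 5 members were lower and 1 higher, where 8.28% of tested genes were lower and 9.92% higher (18.2% in either direction). Differences were below 0 for 7 members, and for 49.5% of tested genes. Uhrf1 was 2.93-fold, Hells 3.09-fold and Ezh2 1.88-fold lower. The groups did not overlap for 5 lower members (Uhrf1, Hells, Ezh2, Dnmt1 and Eed) and 2 higher members (Ezh1 and Dnmt3b), where 11.5% and 13.8% of tested genes separated in these directions (25.3% in either). With 1 array left out, 0 to 5 members passed: 0 when GFP positive replicate 1, GFP positive replicate 3 or GFP negative replicate 2 was omitted, 1 when GFP positive replicate 2 was, 2 when GFP negative replicate 1 was and 5 when GFP negative replicate 3 was. With the 3′ to 5′ signal of each array as a covariate 0 passed, and with arrays weighted by their agreement 7 did. Calls over all 10531 tested genes moved as well. They were 248 higher and 222 lower in the main fit, 9 and 0 with the covariate and 1051 and 603 with array weights. Without GFP positive replicates 1, 2 and 3 they were 2, 40 and 1 higher and 0, 66 and 0 lower. Without GFP negative replicates 1, 2 and 3 they were 158, 70 and 801 higher and 196, 36 and 443 lower. All values are log2 signals made by the authors with GCRMA, so a difference of 1 is a 2-fold change, and differences are GFP positive minus GFP negative. These are bulk samples, in which fewer cells that express a gene and less RNA per cell cannot be told apart.

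**Figure D1:**
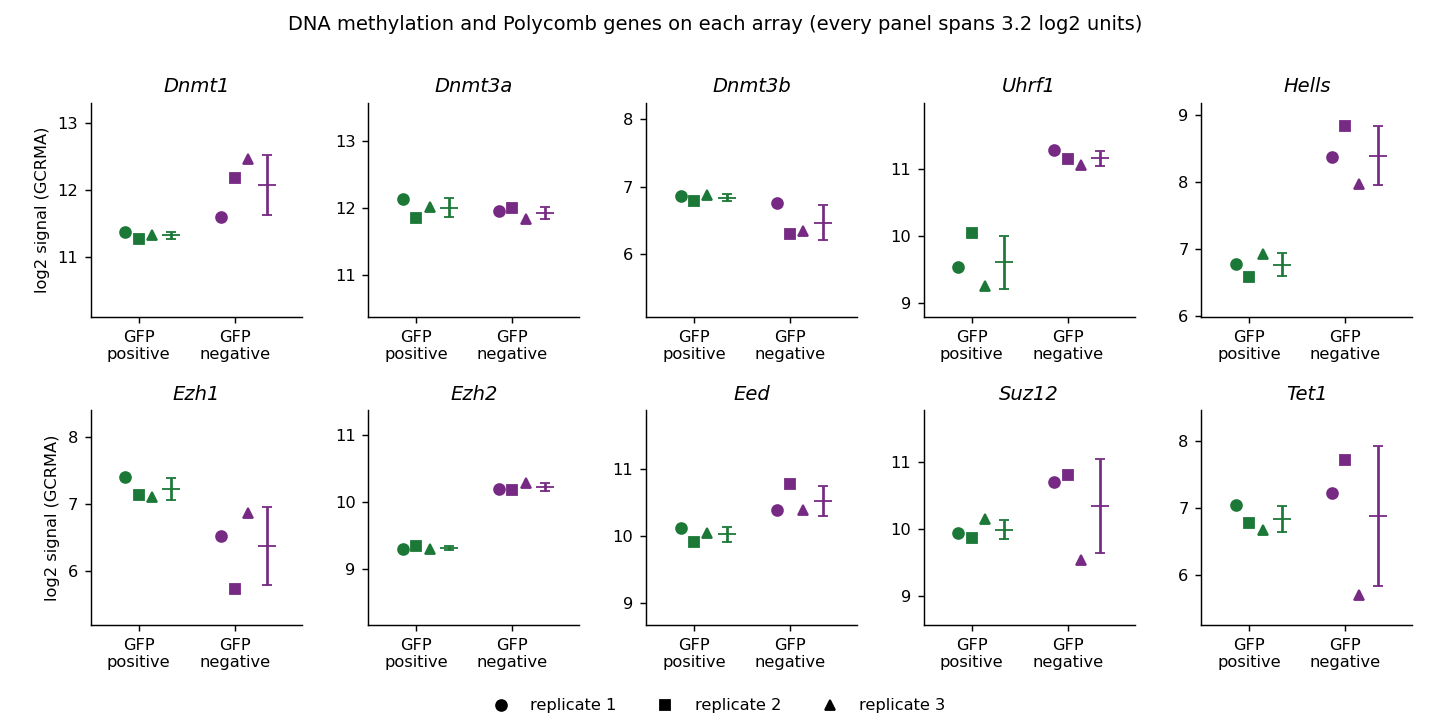
log2 signal of the brightest probe set of each gene on the 3 GFP positive (green, left) and 3 GFP negative (purple, right) arrays, with the mean and SD beside the points; every panel spans the same range. Uhrf1, Hells, Ezh2, Dnmt1 and Eed lie lower on all GFP positive arrays, and Suz12 and Tet1 are spread widely among the GFP negative arrays.

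The third GFP negative array was unlike the rest of its group. It scored 36.8 on principal component 2 (36.3% of the variance), against −31.9 and −33.8 for the other GFP negative arrays, while component 1 (44.2%) separated the groups. The excess of 3′ over 5′ signal of the Gapdh and beta-actin controls spanned 1.52 to 1.63 log2 units over GFP positive arrays and 1.51 to 2.49 over GFP negative ones, highest on GFP negative replicate 2. Thrsp averaged 14.21 ± 0.096 in GFP positive and 13.56 ± 0.15 in GFP negative cells (SD, n = 3 each; limma adjusted p = 0.0893). The neural stem cell list includes Thrsp itself, so the counts, median and sum of that list are not independent of how the groups were defined. Of 13 neural stem cell markers measured, 2 rose, 0 fell and 10 were positive (median 0.53). The log2 summed signal of the list was 16.79 to 16.87 in GFP positive samples, against 16.50 to 16.60 in GFP negative samples. Those that rose were the intermediate filament Gfap (11.76 in GFP positive and 10.26 in GFP negative cells, limma adjusted p = 0.0188) and the nuclear receptor Nr2e1 (11.45 in GFP positive and 10.59 in GFP negative cells, limma adjusted p = 0.0308), which passed in 3 and in 1 of the 6 fits with 1 array left out. Of 12 neuronal markers 4 lay under log2 4 on every array, Dcx and Rbfox3 among them, and 6 were measured (median −0.69), with a log2 summed signal of 13.03 to 13.30 in GFP positive samples, against 13.13 to 13.66 in GFP negative samples. The RNA-binding Elavl4 fell (−1.59, limma adjusted p = 0.0474), a call that held in 1 of the 6 fits with 1 array left out. Of 9 oligodendrocyte markers Mbp, Mog, Mag and Sox10 lay under log2 4 on every array, while the other 5, Olig1 and Olig2 among them, were measured with 0 calls (median −0.20, 2 lower and 0 higher at an unadjusted limma p under 0.05). Their log2 summed signal was 14.14 to 14.33 in GFP positive samples, against 14.17 to 14.28 in GFP negative samples. Of the microglia markers 8 of 10 lay under log2 4 on every array, and the summed signal was 7.54 to 7.78 in GFP positive samples, against 7.32 to 7.79 in GFP negative samples. Of the endothelial and pericyte markers 7 of 10 did, Pecam1, Cdh5 and Cldn5 among them, with a summed signal of 7.32 to 7.66 in GFP positive samples, against 8.03 to 9.19 in GFP negative samples. There the muscle actin Acta2 fell (−1.29, limma adjusted p = 0.0413), a call that held in 2 of the 6 fits with 1 array left out. Cspg4 stood in both this list and the oligodendrocyte list, with the lowest difference of each (−1.31), so these lists are not independent. The calls of Gfap, Nr2e1, Elavl4 and Acta2 were all lost with the replicate block and with the 3′ to 5′ covariate. Apart from fits with 1 array left out, Nr2e1 passed in 8 of 10 alternative settings and Gfap in 7 of 10. Elavl4 passed in 5 of 10, and Acta2 in 3 of the 8 in which it was tested. The part of these markers in the members' differences was not tested.

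Uhrf1, which recruits Dnmt1 to newly copied DNA, read 9.54, 10.04 and 9.26 on the GFP positive arrays, against 11.28, 11.15 and 11.05 on the GFP negative arrays. All 3 GFP positive values lay below every GFP negative one, and the GFP positive arrays differed more among themselves. The means were 9.61 ± 0.39 in GFP positive and 11.16 ± 0.11 in GFP negative cells (SD, n = 3 each). The difference was −1.55 (SE 0.23, 95% limma interval −2.10 to −1.0, limma adjusted p = 0.0172). The call was lost without GFP positive replicate 1 (limma adjusted p = 0.0946), GFP positive replicate 3 (0.0827) or GFP negative replicate 2 (0.0636). The unadjusted limma p was at most 0.00181 with any 1 array left out.

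Hells, the remodeller also called Lsh, read 6.78, 6.59 and 6.92 on the GFP positive arrays, against 8.37, 8.84 and 7.97 on the GFP negative arrays. The highest GFP positive array was about 1 log2 unit below the lowest GFP negative one. The difference of −1.63 (SE 0.25, 95% limma interval −2.22 to −1.04) passed the test (limma adjusted p = 0.0185). A second probe set of Hells fell as well, to 5.90 ± 0.077 in GFP positive cells, against 7.32 ± 0.37 in GFP negative cells (SD, n = 3 each; −1.43, limma adjusted p = 0.0320 over all probe sets tested). A dimmer probe set, at 3.92 ± 0.63 in GFP positive and 5.11 ± 0.88 in GFP negative cells (SD, n = 3 each), overlapped between the groups (−1.19, limma adjusted p = 0.296). The call of Hells was kept without GFP negative replicate 1 or 3 and was lost without any of the other 4 arrays, where the limma adjusted p was 0.0524 to 0.0946.

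Dnmt1, the maintenance methyltransferase itself, read 11.37, 11.27 and 11.33 on the GFP positive arrays, against 11.59, 12.17 and 12.47 on the GFP negative arrays. The groups did not overlap, yet the GFP negative arrays spanned 0.88 log2 units and the lowest of them was close to the GFP positive values. The difference of −0.75 (SE 0.25, 95% limma interval −1.33 to −0.18) did not pass (limma adjusted p = 0.154). This probe set carries a suffix for possible cross-hybridisation. A probe set of Dnmt1 without that suffix read 6.67, 6.59 and 6.35 in GFP positive samples, against 7.37, 7.92 and 8.69 in GFP negative samples. There the difference was −1.46, larger than at the brightest probe set, and it passed neither among all probe sets (limma adjusted p = 0.0806) nor as the representative of its gene with suffixed probe sets left out (limma adjusted p = 0.0569). Among all probe sets 10.8% separated with lower values in GFP positive cells, as this one did. The remaining probe set of Dnmt1 differed by −0.32 and its groups overlapped (limma adjusted p = 0.588).

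Dnmt3a, a writer of new methylation, read 12.14, 11.86 and 12.03 in GFP positive samples, against 11.96, 12.01 and 11.83 in GFP negative samples. The groups overlapped, and the 95% limma interval of the difference of 0.074 was −0.32 to 0.47, so changes of up to about 1.39-fold upward lie within it (limma adjusted p = 0.881). Its 5 probe sets, all above background, differed by −0.095 to 0.23, with 3 below and 2 above 0, and none passed. Dnmt3b, its relative, averaged 6.83 ± 0.047 in GFP positive and 6.46 ± 0.26 in GFP negative cells (SD, n = 3 each). Its GFP positive arrays read 6.85, 6.78 and 6.87 and its GFP negative arrays 6.76, 6.29 and 6.33, so the groups separated by only a narrow gap. The difference of 0.37 did not pass (95% limma interval −0.073 to 0.82, limma adjusted p = 0.368).

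Tet1, the methylcytosine dioxygenase, read 7.05, 6.78 and 6.68 in GFP positive samples, against 7.23, 7.71 and 5.71 in GFP negative samples. The GFP negative arrays held both the highest and the lowest value, with replicate 3 the lowest of all. The difference of −0.048 had a 95% limma interval of −1.17 to 1.07, which includes a 2-fold change in either direction (limma adjusted p = 0.976). Without GFP negative replicate 3 it was −0.64 and did not pass either (limma adjusted p = 0.102). Omitting GFP negative replicate 2 turned it to 0.37. Another probe set of Tet1 above background read 5.06 ± 0.065 in GFP positive and 5.12 ± 0.37 in GFP negative cells (SD, n = 3 each).

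**Figure D2:**
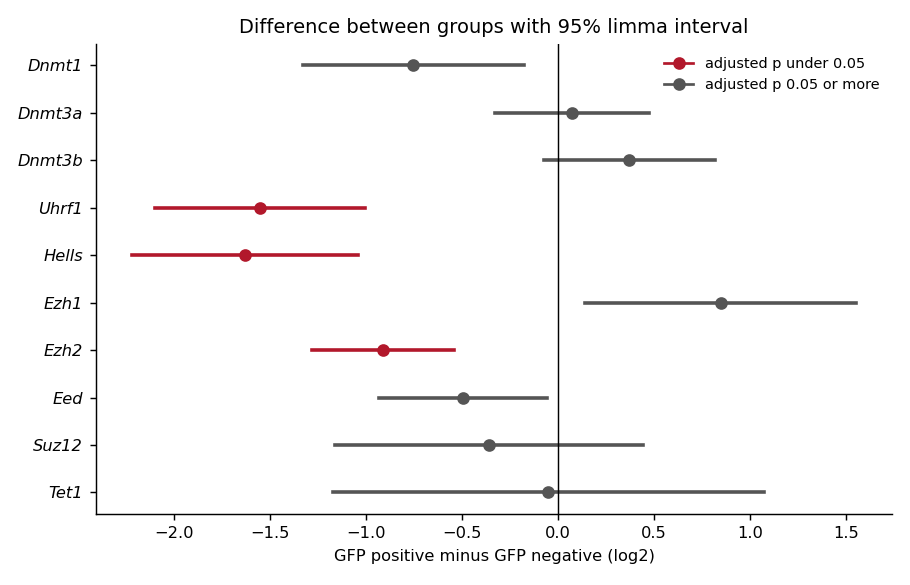
Difference between GFP positive and GFP negative cells for the 10 genes on the log2 scale (horizontal axis), with points for the estimate and bars for the 95% limma interval; red marks a limma adjusted p under 0.05. The intervals of Uhrf1 and Hells end at −1.0 and −1.04, while that of Tet1 spans −1.17 to 1.07.

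Ezh2, the main methyltransferase of PRC2, read 9.29, 9.34 and 9.29 on the GFP positive arrays, against 10.19, 10.18 and 10.29 on the GFP negative arrays. The replicates lay within 0.047 and 0.11 log2 units of one another, and the groups were nearly 1 log2 unit apart. The means were 9.31 ± 0.026 in GFP positive and 10.22 ± 0.060 in GFP negative cells (SD, n = 3 each), a difference of −0.91 (SE 0.16, 95% limma interval −1.28 to −0.54, limma adjusted p = 0.0264). The size was −0.93 to −0.87 with any 1 array left out, GFP negative replicate 3 included. The call held only without GFP negative replicate 3 (limma adjusted p = 0.0154) and was lost without any of the other 5 arrays, where it was 0.0526 to 0.136. Ezh2 has 1 probe set on the arrays, so no other one could be compared.

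Ezh1, the paralogue of Ezh2, went the other way without passing the test. Its brightest probe set read 7.41, 7.15 and 7.11 on the GFP positive arrays, against 6.52, 5.73 and 6.87 on the GFP negative arrays. The groups did not overlap, and the GFP negative arrays spanned 1.14 log2 units. The difference was 0.85, or 1.80-fold (SE 0.30, 95% limma interval 0.14 to 1.55, limma adjusted p = 0.186). It passed without GFP negative replicate 3 (1.10, limma adjusted p = 0.0436). Without GFP negative replicate 2, the lowest array for this probe set, the difference was 0.53 (limma adjusted p = 0.322). With the 3′ to 5′ covariate it was 0.50 (limma adjusted p = 0.543). A second probe set of Ezh1 read 6.69, 7.06 and 6.74 in GFP positive samples, against 5.73, 6.74 and 6.72 in GFP negative samples. There the groups overlapped, GFP negative replicate 1 alone lay well below the rest, and the difference was 0.43 (limma adjusted p = 0.571 over all probe sets tested). The other 2 probe sets of Ezh1 lay near background, at 2.77 and 2.52 in GFP positive and 2.63 and 2.53 in GFP negative cells.

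Set against Ezh2 on the same array, Ezh1 was higher in GFP positive cells. Log2 Ezh1 minus log2 Ezh2 was −1.88, −2.19 and −2.18 on the GFP positive arrays, against −3.66, −4.45 and −3.41 on the GFP negative arrays. The 2 sets did not overlap, and the means of −2.08 ± 0.18 and −3.84 ± 0.54 (SD, n = 3 each) differed by 1.76, a 3.38-fold shift of the ratio. An exact 2-sided permutation test gave p = 0.1, the smallest that 3 against 3 arrays allow. With the second Ezh1 probe set the shift was 1.34, or 2.54-fold. The 2 Ezh1 probe sets near background also gave shifts, of 1.05 and 0.91, with no overlap, so the difference of Ezh2 alone separates the groups on this measure and the separation adds nothing about Ezh1. The measure does not say which one is more abundant, since signals of different probe sets are not on a common scale.

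**Figure D3:**
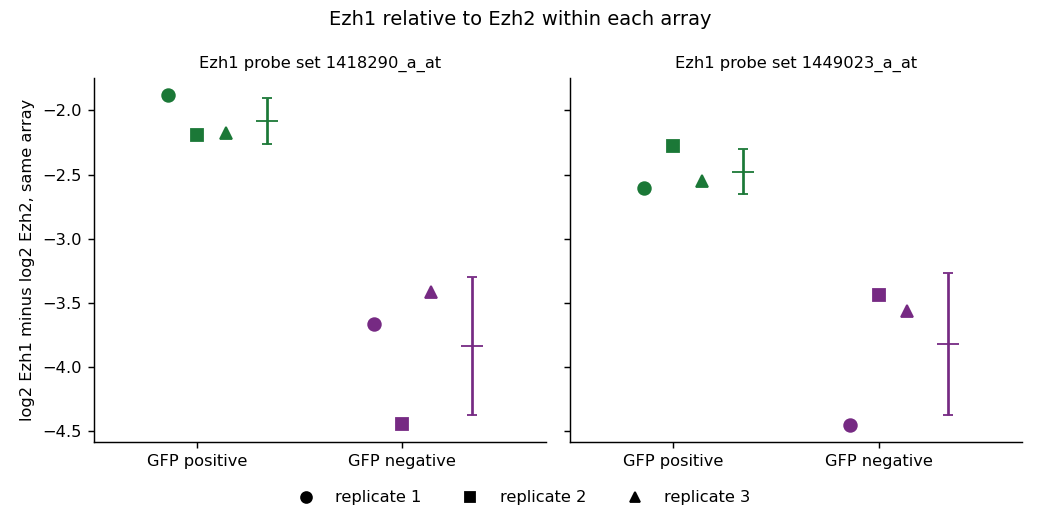
Log2 signal of Ezh1 minus that of Ezh2 on the same array (vertical axis) for the brighter (left panel) and the second (right panel) Ezh1 probe set, with GFP positive arrays in green on the left, GFP negative arrays in purple on the right and mean and SD beside them. In both panels every GFP positive array lies above every GFP negative one, by 1.76 and 1.34 on average.

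The core subunits Eed and Suz12 did not pass. Eed, which reads the methyl mark and stimulates the enzyme, was 10.13, 9.92 and 10.05 in GFP positive samples, against 10.40, 10.78 and 10.40 in GFP negative samples. The groups separated with a difference of −0.49 (SE 0.19, 95% limma interval −0.93 to −0.055, limma adjusted p = 0.217). Suz12, which holds the complex together, was 9.95, 9.88 and 10.16 in GFP positive samples, against 10.70, 10.81 and 9.54 in GFP negative samples. GFP negative replicate 3 lay below all other arrays here, as it did for Tet1. Over all 6 arrays the difference was −0.36 (95% limma interval −1.16 to 0.45, limma adjusted p = 0.668), and without that array it was −0.76 and passed (limma adjusted p = 0.0316). Omitting GFP negative replicate 1 gave −0.18 (limma adjusted p = 0.838), and omitting GFP negative replicate 2 gave −0.13 (limma adjusted p = 0.898). At all 5 probe sets of Suz12 above background GFP negative replicate 3 was the lowest of the 6 arrays, at 6.81 against 8.94 and 9.11 in its group at one of them. The part of this array's departure in the result was not tested beyond leaving it out.

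Across the 10 genes, 24 of 32 probe sets were above background and 4 of these fell: 2 of Hells and 1 each of Uhrf1 and Ezh2. Among all 18742 probe sets tested, 1.07% fell and 1.3% rose (2.37% in either direction). All 3 probe sets of Dnmt1 and all 3 of Hells were negative, and both tested ones of Ezh1 were positive. Suz12 had 4 negative and 1 positive, and Dnmt3a 3 negative and 2 positive. A second probe set of Uhrf1 lay near background, at 3.50 in GFP positive and 3.60 in GFP negative cells, so its call rests on 1 probe set.

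**Figure D4:**
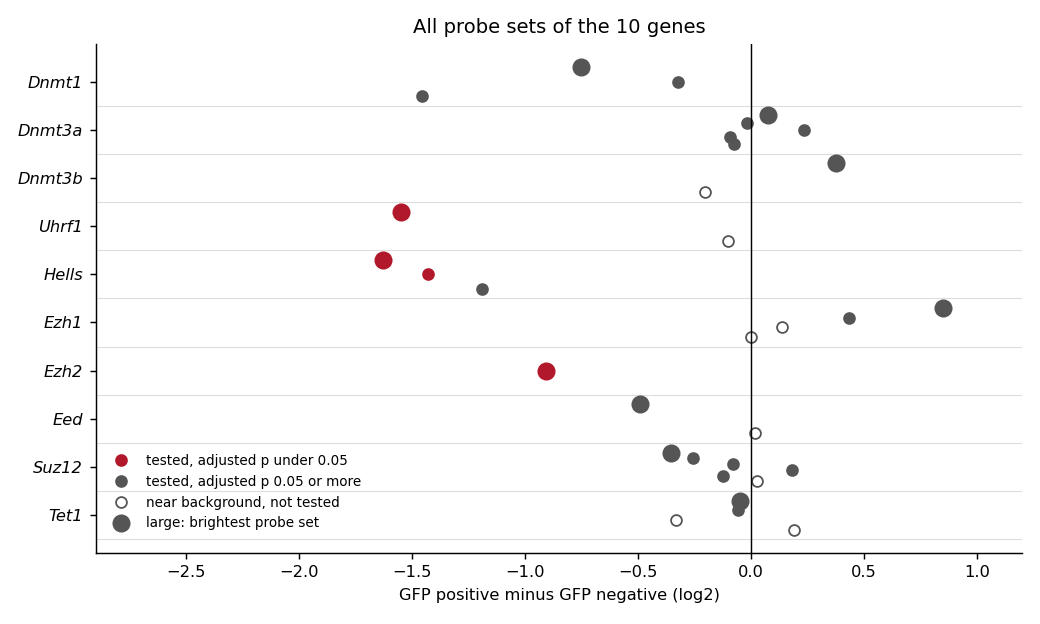
Difference between GFP positive and GFP negative cells (horizontal axis, log2) at each of the 32 probe sets of the 10 genes, with large points for the brightest probe set of a gene, open points for probe sets near background and red for a limma adjusted p under 0.05 over all probe sets tested. The probe sets of Dnmt1 and Hells all lie below 0, and those of Dnmt3a lie within −0.095 to 0.23.

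Of 87 measured genes in 6 lists of partners and related chromatin genes 3 fell and 0 rose, or 3.45%, near the 4.46% of all tested genes. Over all 10531 genes tested the median difference was 0.0049. The other PRC2 subunits and cofactors had 7 measured genes, of which 0 passed and all 7 were negative, with a median of −0.23. Its brightest members, the histone binders Rbbp4 (−0.13) and Rbbp7 (−0.23), did not pass, and none of the 7 reached an unadjusted limma p under 0.05. Of 19 measured subunits of Polycomb repressive complex 1, which ubiquitinates histone H2A, 0 passed in either direction, with a median of −0.14 and 3 lower and 0 higher at an unadjusted limma p under 0.05. The brightest were Yaf2 (0.019) and the chromodomain protein Cbx6 (0.26). Of 15 measured antagonists of Polycomb, 0 passed (median −0.043), with 1 lower and 0 higher at an unadjusted limma p under 0.05. Among them the demethylase Kdm6b, which removes the PRC2 mark, differed by 0.033 and the Trithorax-type methyltransferase Kmt2d by 0.082.

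Among 19 measured partners and readers of DNA methylation 1 fell and 0 rose, with a median of −0.092. The gene that fell was Cdca7l, a relative of the Hells activator Cdca7. It read 4.39, 5.46 and 4.12 in GFP positive samples, against 6.86, 7.29 and 7.38 in GFP negative samples, a 5.72-fold difference (−2.52, SE 0.36, limma adjusted p = 0.0158). Cdca7 itself, named after its value was seen, was 3.63 ± 0.49, near background, in GFP positive and 5.14 ± 0.50 in GFP negative cells (SD, n = 3 each; −1.51) and missed the threshold (limma adjusted p = 0.0522). Its entry to the test rested on its GFP negative values, so it gives no support to the other genes. Cdca7 passed in 1 of the 6 fits with 1 array left out. It passed in 0 of the 9 other settings in which it was tested, and a filter of log2 6 removed it. The call of Cdca7l was lost when GFP positive replicate 1, GFP positive replicate 3 or GFP negative replicate 2 was omitted (limma adjusted p up to 0.0894), and with no filter, the replicate block or the 3′ to 5′ covariate (up to 0.0921).

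Of 12 measured genes of active demethylation 0 passed, with a median of 0.077 and with 1 higher and 2 lower at an unadjusted limma p under 0.05. Differences in this list ran from −1.97 to 0.998. The stress-induced adaptors Gadd45g (0.029) and Gadd45a (0.85, limma adjusted p = 0.113) were the brightest. The other TET enzymes, named after their values were seen, differed by 0.17 (Tet2) and −0.49 (Tet3), with limma adjusted p of 0.865 and 0.290. Of 15 measured genes of chromatin assembly at the replication fork 2 fell, 0 rose and 13 were negative, with a median of −0.33. Asf1b, a histone chaperone, was 4.60 ± 0.40 in GFP positive and 6.48 ± 0.27 in GFP negative cells (SD, n = 3 each), a difference of −1.88 (limma adjusted p = 0.0147). Lig1, the ligase that joins Okazaki fragments, was 6.25 ± 0.49 in GFP positive and 8.21 ± 0.37 in GFP negative cells (SD, n = 3 each), a difference of −1.97 (limma adjusted p = 0.0185). The number that fell in this list was 0 to 4 with 1 array left out, 0 when GFP positive replicate 1, GFP positive replicate 3 or GFP negative replicate 2 was omitted and 4 when GFP negative replicate 3 was. It was 1 with no filter, 0 with the replicate block or the 3′ to 5′ covariate and 5 with array weights.

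Cell division markers were lower in the same samples. Of 22 measured, 18 fell, 0 rose and all 22 were negative, with a median of −1.69. Mki67, the Ki-67 antigen of dividing cells, averaged 8.71 ± 0.26 in GFP positive and 10.81 ± 0.63 in GFP negative cells (SD, n = 3 each; −2.10, limma adjusted p = 0.0188). Relative to each gene's mean, the list had medians of −0.91, −0.45 and −1.12 in the GFP positive samples, against 0.53, 0.87 and 1.21 in the GFP negative samples. On the same scale Uhrf1 was −0.85, −0.35 and −1.13 in GFP positive samples, against 0.89, 0.77 and 0.67 in GFP negative samples. Among the GFP positive arrays Uhrf1 stood in the order of the list, and among the GFP negative arrays it did not. Hells was −0.80, −0.99 and −0.65 in GFP positive samples, against 0.79, 1.26 and 0.39 in GFP negative samples. Its values stood in the order of the list in neither group. Ezh2 was −0.47, −0.42 and −0.47 in GFP positive samples, against 0.42, 0.42 and 0.52 in GFP negative samples, and hardly varied within either group. The part of cell division in the differences of Uhrf1, Hells and Ezh2 was not tested. The number of division markers that fell was 0 when GFP positive replicate 1 or GFP positive replicate 3 was omitted, 2 when GFP negative replicate 2 was, 8 when GFP positive replicate 2 was and 14 and 20 when GFP negative replicates 1 and 3 were. It was 3 with no filter on low signal and 0 with the replicate block or the 3′ to 5′ covariate, while the median lay between −1.87 and −1.42 in every setting tried.

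**Figure D5:**
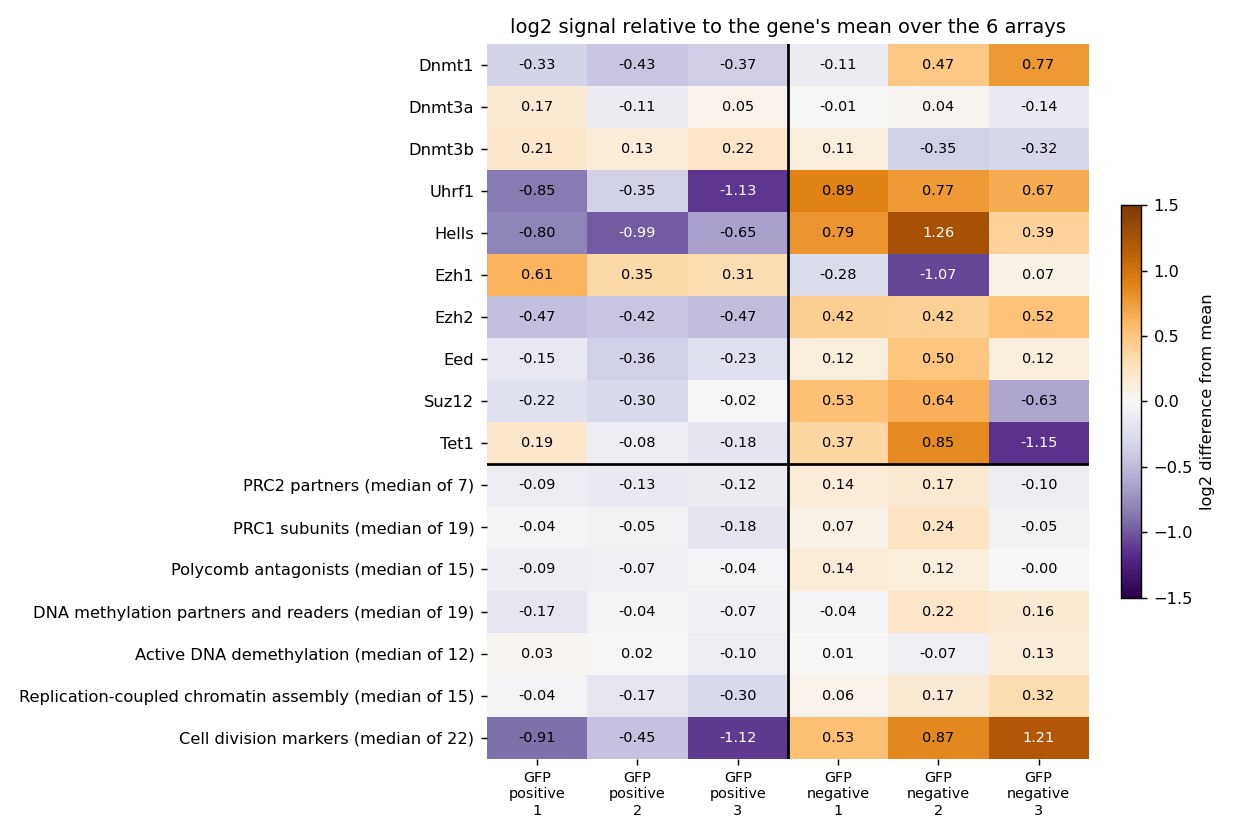
Log2 signal on each array relative to the mean over all 6 arrays, for the 10 genes (above the line) and as the median of each gene list (below it), with GFP positive arrays left and GFP negative arrays right of the vertical line; orange is above and purple below the mean. Uhrf1, Hells, Ezh2 and Eed are negative on all GFP positive and positive on all GFP negative arrays. So are the medians of the cell division markers and of replication-coupled chromatin assembly, while Suz12 and Tet1 are lowest on GFP negative replicate 3.

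The genes whose profiles lay nearest to each member were found by the root mean square difference of mean-centred log2 values over the 6 arrays, among 10157 named genes. The nearest to Uhrf1 were Nuf2, a kinetochore protein (0.118), Hs6st2, a heparan sulfate sulfotransferase (0.153), and Ccna2, cyclin A2 (0.155). The nearest to Hells were Myt1 (0.184), the helicase Pif1 (0.202) and Parpbp (0.219). The nearest to Ezh2 were the actin-binding Nexn (0.0537), the lamin Lmnb2 (0.0673) and the calponin Cnn2 (0.0756). The nearest to Ezh1 were the cytokine signalling inhibitor Cish (0.0884), Nkain4 (0.105) and Kbtbd3 (0.108). Those of Dnmt1 were Nop56, a nucleolar protein (0.0393), Atp13a1 (0.0649) and Nomo1 (0.0744). Those of Eed were Trmt61b (0.0306), Zbtb43 (0.0352) and Wtap (0.0624). Those of Suz12 were the helicase Dhx9 (0.0811), Iws1 (0.101) and Fchsd2 (0.106). Dnmt3a lay nearest to Gab1, Ccnl2 and Tnrc6b, Dnmt3b to Rab5c, Fam76a and Lrrc57, and Tet1 to Fam160b2, Zfp81 and Deptor. Among the members themselves Suz12 and Tet1 were each other's nearest (0.313), as were Dnmt1 and Ezh2 (0.250) and Dnmt3a and Dnmt3b (0.220).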

How the data were processed

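Total RNA of 6 mouse samples was labelled with biotin, per the labels' protocols. The authors deposited log2 signals per probe set, for which GCRMA is named per the submitters' processing notes. No version or genome build is given in the sources used here. GCRMA estimates background from probe sequence, so dim signals lie near a floor and their differences are compressed.

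Of 45101 probe sets 34945 named exactly 1 gene by the platform annotation, and 34741 of these were found in the RefSeq table of GRCm38.p6. Each gene was represented by its brightest probe set, by mean over the 6 arrays. Genes at log2 4 or more on at least 3 arrays entered lmFit and eBayes of limma 3.58.1 (R 4.3.3) with no covariate and with Benjamini-Hochberg adjustment over 10531 genes and a threshold of 0.05. The test was checked on simulated data with independent normal noise and no outlying array. That check therefore does not cover array effects such as the departure of GFP negative replicate 3. The number of arrays limits the precision. The members were given by name and the gene lists chosen with earlier results of these data known. Named list genes were those past the threshold, up to 4 per direction, or else the 2 brightest, for the partner lists; each member; Mki67 and Thrsp; and each member's 3 nearest profiles. Other genes were named after their values were seen. Alternatives were other filters, normalizations, probe set choices, variance models, array weights, a replicate block, a 3′ to 5′ covariate and each array left out.

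The labels do not say whether same-numbered samples of the groups belong together, and the numbers were not taken as pairs in the main test. Deviations from group means correlated at −0.25, 0.053 and −0.50 between same-numbered replicates 1, 2 and 3. With 3 arrays per group these values cannot decide whether the samples were paired. Some genes of the lists were not analysed here.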

Additional observations from a re-analysis of the deposited data

How the results depend on the processing

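With 1 array left out, genes past the threshold ranged from 1 to 801 higher and from 0 to 443 lower, and members from 0 to 1 higher and from 0 to 4 lower; 0 members passed when GFP positive replicate 1, GFP positive replicate 3 or GFP negative replicate 2 was omitted, where 4 to 5 members had an unadjusted limma p under 0.05. The shift of Ezh1 minus Ezh2 was 1.46 to 1.97 over those fits. Array weights gave 1051 higher and 603 lower genes and 1 higher and 6 lower members (Ezh1, and Dnmt1, Uhrf1, Hells, Ezh2, Eed and Suz12), with a weight of 0.152 for GFP negative replicate 3 and 8.35 for GFP positive replicate 2. The labels do not say whether same-numbered samples of the groups belong together. With the replicate number as a block 19 genes were higher, 8 lower and 0 members lower. In that fit Uhrf1 (−1.55), Hells (−1.63) and Ezh2 (−0.91) had unadjusted limma p of 0.000934, 0.00160 and 0.00707. The causes of these changes were not tested. The 3′ to 5′ covariate gave 9 higher and 0 lower genes and 0 lower members, with 794 higher and 563 lower genes at an unadjusted limma p under 0.05; Uhrf1 differed by −1.57, Hells by −1.42 and Ezh2 by −0.92. No filter gave 101 lower genes and 2 lower members, with 18193 genes tested and Hells past the threshold no longer (limma adjusted p = 0.0527; unadjusted 0.000932, against 0.000276 with the filter). The 3 calls held with a filter of log2 6, both normalizations, all probe sets, probe sets not marked for cross-hybridisation, and trend and robust settings. Signs turned only for members near 0: Tet1 was 0.019 with a common median, 0.25 with the covariate and −0.64 to 0.37 with arrays left out, and Dnmt3a was −0.074 with array weights. The share of lower among called genes was 47.2%, 44.4% with quantile normalization, 39.2% with a common median, 36.5% with array weights, 34.4% with no filter, 29.6% with the block, 0% with the covariate and 0% to 62.3% with 1 array left out.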
